A study of Mus musculus with 6 samples.

Results

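The core circadian clock loop was described from 10 genes of the deposited expression table, which holds 23402 gene rows: the activators Arntl, Clock and Npas2 and the repressors Per1, Per2, Per3, Cry1, Cry2, Nr1d1 and Nr1d2. They were selected by gene symbol from a list of the loop's known parts, and all 10 were found. RNA was sequenced from whole terminal ileum, the end of the small intestine, of 6 mice aged 6 weeks, with 1 library per mouse. All of them carried the floxed receptor allele Il17rafl/fl and had drunk dextran sodium sulfate (DSS), a polysaccharide that injures the gut lining, before sampling on day 6. The Cre-positive group (titled KO, 3 mice) was Il17rafl/fl;Atoh1-cre+, in which Cre is driven by Atoh1, a gene of the secretory lineage of the gut epithelium, and the Cre-negative group (titled WT, 3 mice) was Il17rafl/fl;Atoh1-cre- from the same litters. The sources used here do not give the hour of sampling, the lighting schedule or the sex of the mice, so for every clock gene a difference in sampling hour between the groups and the genotype difference cannot be told apart.

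The clock runs as a feedback loop of transcription in almost every cell. The proteins of Arntl (BMAL1) and of Clock or its relative Npas2 pair up and activate genes through E-box sequences, among them Per and Cry genes, whose products return to the nucleus and inhibit the pair. In a further loop the nuclear receptors made from Nr1d1 and Nr1d2 (REV-ERBα and REV-ERBβ) repress Arntl through ROR elements, and factors that bind D-boxes adjust Per genes. Because these genes peak at different times of day, their levels depend on when tissue is taken. In the gut the clock is known to time digestion, absorption and immune functions.

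Sequence windows from 250 bases before to 50 bases after annotated start sites (RefSeq, GRCm38.p6) were read for the members, since the loop acts through these elements. They covered 9 of the 10 genes in 13 windows, and Per2 had none in the table used. Both strands were searched for the E-box CACGTG, the D-box TTATGNAA and the ROR element, searched as the core AGGTCA or GGGTCA directly after the letters AANT. An E-box was found in windows of 2 members (Cry1 and Per1), a D-box in 2 (Per1 and Per3) and a ROR element in 1 (Arntl). Over all 32851 windows of this length in the table, 7.15% held the E-box, 3.38% the D-box and 0.435% the ROR element. These shares are by window and the counts of members are by gene, so they are not in like units. A match describes letters only, and no match says nothing about the factors outside these windows.

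Windows are shown for the 3 genes whose libraries separated by group in the data (Arntl, Per3 and Nr1d2) and for Per1, whose window held 2 kinds of element. Capitals mark the matches, and each window is written 5′ to 3′ on the gene's strand. In Arntl (chr7:113207261-113207560, plus strand) the ROR element begins 27 bases after the start site. In Per3 (chr4:151044616-151044915, minus strand) a D-box begins at -205, counted in bases from the start site, and another at -158. In Per1 (chr11:69098699-69098998, plus strand) the E-box begins at -166 and the D-box at -24. Arntl and Per1 each had another window (chr7:113207215-113207514 and chr11:69099902-69100201), which held none of these elements. Positions are counted from the annotated start site of the window shown. The window of Nr1d2 (chr14:18239057-18239356, minus strand) held none of these letters, and the matches do not overlap each other.
Arntl: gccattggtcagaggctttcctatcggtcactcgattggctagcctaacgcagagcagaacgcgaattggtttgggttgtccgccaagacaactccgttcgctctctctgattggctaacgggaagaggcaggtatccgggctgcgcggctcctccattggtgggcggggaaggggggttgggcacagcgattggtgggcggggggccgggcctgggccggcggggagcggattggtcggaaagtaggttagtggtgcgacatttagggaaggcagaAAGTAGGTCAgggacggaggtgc
Per3: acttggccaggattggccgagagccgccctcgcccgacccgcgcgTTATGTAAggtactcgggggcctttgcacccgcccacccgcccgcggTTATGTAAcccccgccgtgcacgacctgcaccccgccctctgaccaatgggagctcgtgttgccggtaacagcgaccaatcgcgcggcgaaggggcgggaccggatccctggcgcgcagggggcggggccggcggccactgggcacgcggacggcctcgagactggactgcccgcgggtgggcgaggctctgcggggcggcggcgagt
Per1: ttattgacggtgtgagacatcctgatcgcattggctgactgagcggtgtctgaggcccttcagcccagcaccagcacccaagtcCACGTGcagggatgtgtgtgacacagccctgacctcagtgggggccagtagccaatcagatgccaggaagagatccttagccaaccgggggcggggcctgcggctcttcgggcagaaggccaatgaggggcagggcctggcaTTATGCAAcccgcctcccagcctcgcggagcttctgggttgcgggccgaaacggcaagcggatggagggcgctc
Nr1d2: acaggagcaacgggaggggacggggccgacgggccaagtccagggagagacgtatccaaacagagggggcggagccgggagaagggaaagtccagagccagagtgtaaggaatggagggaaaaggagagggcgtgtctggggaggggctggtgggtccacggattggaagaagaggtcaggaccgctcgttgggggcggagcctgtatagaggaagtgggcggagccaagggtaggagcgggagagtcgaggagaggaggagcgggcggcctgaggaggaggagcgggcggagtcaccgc

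Values are FPKM, which count sequenced fragments relative to transcript length and library depth, so that levels of different genes can be set side by side. The libraries listed 16317 to 16547 genes above 0, and steps in their lowest values corresponded to an estimated 8040000 to 9370000 fragments each. Il17ra stood at 6.04, 5.91 and 6.53 FPKM in Cre-negative libraries 1, 2 and 3 and at 7.93, 8.36 and 6.07 FPKM in Cre-positive libraries 1, 2 and 3, so whole tissue gave no check of the labelled deletion. The enterocyte genes Sis (583 to 649 FPKM) and Vil1 (568 to 782 FPKM) were high in every library, while the ileal bile acid genes Fabp6 (0.316 to 9.79 FPKM) and Slc10a2 (0.0669 to 1.94 FPKM) were low. These bile acid genes thus gave no check of the labelled site, and whether the site sampled differed between mice was not tested. Xist, transcribed from the inactive X chromosome of females, was at 148 FPKM in Cre-negative 3 and at 166 and 177 FPKM in Cre-positive 2 and 3, and below 0.2 FPKM in the other libraries, where Y-linked genes were detected instead. The groups therefore differed in the number of libraries with Xist, 1 of 3 against 2 of 3. In bulk tissue fewer cells of a type and less RNA per cell cannot be told apart.

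All 10 clock genes were detected in all 6 libraries, and their mean levels over the 6 libraries spanned from 35.1 FPKM for Nr1d1 to 2.59 FPKM for Per3. Between them, in falling order, were Clock (21.6), Nr1d2 (19.6), Arntl (14.1), Npas2 (10.2), Per1 (9.97), Per2 (6.22), Cry2 (6.18) and Cry1 (5.26 FPKM). Nr1d1 was the highest and Per3 the lowest member in each library, and their ranges over the libraries did not overlap those of their neighbours in the order. Each of the other neighbours overlapped in range. Npas2 exceeded Per1 in 3 of 6 libraries, and Per2 exceeded Cry2 in 3 of 6. From transcript lengths and the estimated depth, Per3 rested on roughly 82 to 210 fragments per library, where counting alone gives an error of about 11.0% at the lowest value, and Clock on roughly 1600 to 2000.

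**Figure D1:**
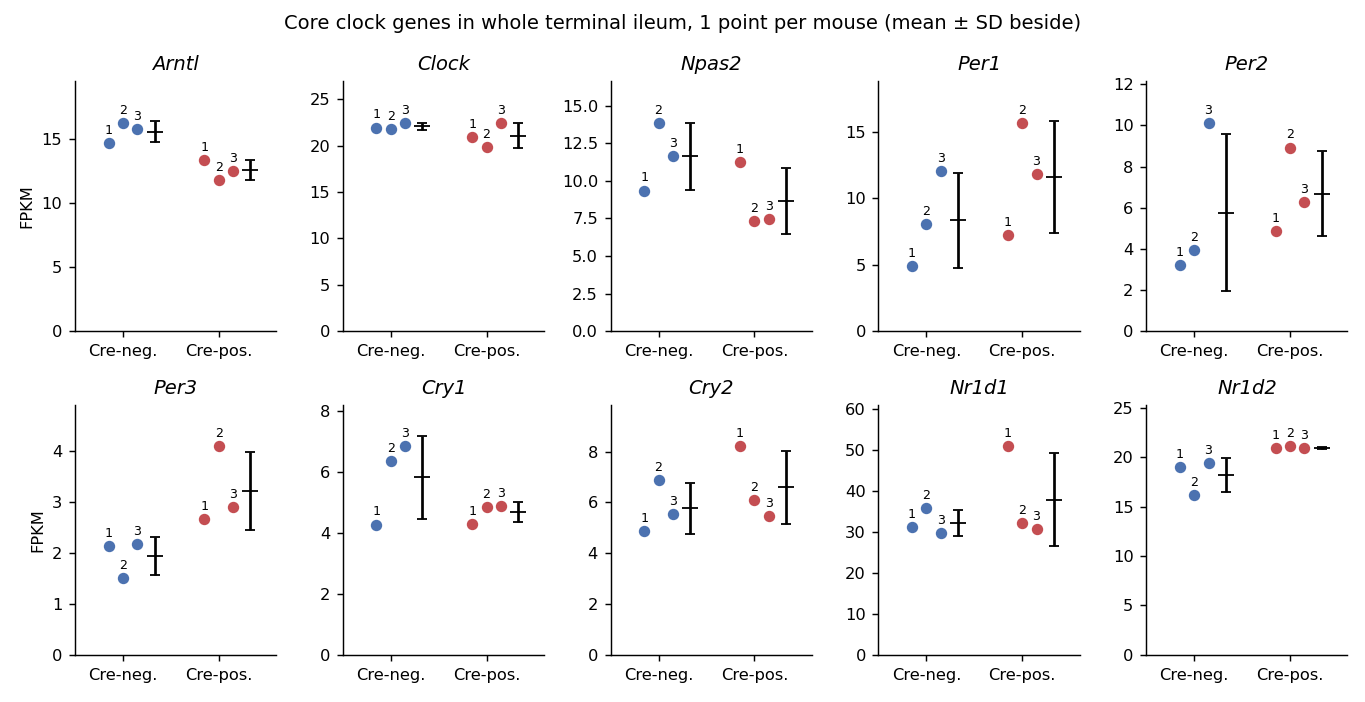
FPKM (vertical axes, each starting at 0) of the 10 clock genes in the 3 Cre-negative (blue) and 3 Cre-positive (red) libraries, numbered by replicate, with the mean and SD of each group beside the points. Arntl is lower and Per3 and Nr1d2 are higher in every Cre-positive library than in every Cre-negative one, and the groups overlap for the other 7 genes.

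Between the groups, Arntl was lower and Per3 and Nr1d2 were higher in the 3 Cre-positive libraries than in all Cre-negative ones, while the other 7 members overlapped. That made 3 of 10 members without overlap, where the share over the 12695 genes tested was 8.37% (5.77% higher and 2.6% lower). None of the 10 passed limma's moderated test on log2(FPKM + 1) after Benjamini-Hochberg adjustment over all genes tested (adjusted p = 0.998 for each), and 0 genes of the table did (0%). Arntl and Per3 had an unadjusted p under 0.05, 2 of 10 members against 3.62% of all genes tested. Per3 was 1 of 10 on the higher side (2.54% of all genes) and Arntl 1 of 10 on the lower side (1.07%). For single genes, exact two-sided permutation tests of 3 against 3 mice cannot go below p = 0.1, which was reached by Arntl, Per3 and Nr1d2. The values below therefore describe these 6 mice, and no difference is called.

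Of the activators, Arntl encodes BMAL1, the partner without which the loop does not run, at chr7:113207465-113314126 (gene positions here and below are those of GENCODE on GRCm38). Its level was 14.7, 16.3 and 15.8 FPKM in Cre-negative 1, 2 and 3 and 13.4, 11.8 and 12.5 FPKM in Cre-positive 1, 2 and 3. The highest Cre-positive value lay below the lowest Cre-negative value. Group means were 15.6 ± 0.791 and 12.6 ± 0.788 FPKM (SD, n = 3 each), a difference of -19.4%. The log2 fold change was -0.29 (SE 0.09; 95% interval -0.51 to -0.07; limma unadjusted p = 0.0157). Under equal-sum scaling the groups of Arntl overlapped (limma unadjusted p = 0.153). The limma unadjusted p was 0.0551 with the replicate number as a block, 0.0623 without Cre-negative 2 and 0.0652 without Cre-positive 2.

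Clock (chr5:76209868-76304792), which encodes the usual partner of BMAL1, stood at 22.0, 21.8 and 22.5 FPKM in the Cre-negative libraries and at 20.9, 19.8 and 22.5 FPKM in the Cre-positive ones. The groups overlapped, with a log2 fold change of -0.07 (95% interval -0.27 to 0.14), and this was the smallest estimate of the 10. Leaving out Cre-positive 2 or 3 gave -0.025 and -0.11. Npas2 (chr1:39193731-39363236), a relative of Clock that can take its place, was at 9.36, 13.9 and 11.6 FPKM in Cre-negative 1 to 3 and at 11.2, 7.36 and 7.48 FPKM in Cre-positive 1 to 3. Cre-positive 2 and 3 lay below every other library, while Cre-positive 1 lay inside the Cre-negative range. The log2 fold change of Npas2 was -0.39 (SE 0.19, 95% interval -0.83 to 0.05). All 3 activators thus had estimates below 0, except that the estimate of Clock was 0.044 when the columns were rescaled to an equal sum, a scaling that moved the median of all genes by 0.10; relative to that median it was -0.087.

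Of the period genes, whose proteins carry the inhibition into the nucleus, Per3 (chr4:151003652-151044665) differed most in proportion. It was listed at 2.15, 1.52 and 2.19 FPKM in Cre-negative 1, 2 and 3 and at 2.67, 4.10 and 2.90 FPKM in Cre-positive 1, 2 and 3. Every Cre-positive value lay above the Cre-negative range, and Cre-positive 2 was the highest. Group means were 1.95 ± 0.375 and 3.22 ± 0.766 FPKM (SD, n = 3 each), a difference of 65.1%. The log2 fold change was 0.51 (SE 0.17; 95% interval 0.12 to 0.90; limma unadjusted p = 0.0173), on a scale that understates changes at such low levels. Without Cre-negative 2 it was 0.40 (limma unadjusted p = 0.0677), and without Cre-positive 2 it was 0.37 (limma unadjusted p = 0.0614). Its window above holds 2 D-boxes, the element bound by Dbp, Tef, Hlf and Nfil3, and their part in the Per3 level was not tested.

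Per1 and Per2, the period genes that respond fastest to resetting signals, followed another pattern. Per1 (chr11:69095217-69109960) was at 4.90, 8.04 and 12.1 FPKM in Cre-negative 1 to 3 and at 7.28, 15.7 and 11.8 FPKM in Cre-positive 1 to 3. Per2 (chr1:91415982-91459324) was at 3.19, 3.94 and 10.1 FPKM and at 4.85, 8.93 and 6.27 FPKM in the same order. For both genes Cre-negative 3 and Cre-positive 2 and 3, the libraries with Xist, were the 3 highest of the 6. Per1 ranged from 11.8 to 15.7 FPKM in the libraries with Xist and from 4.90 to 8.04 FPKM in those without, and Per2 from 6.27 to 10.1 FPKM and from 3.19 to 4.85 FPKM. The libraries with and without Xist did not overlap for these 2 members, nor for 7.74% of all genes tested. This split was noticed in the data and was not tested.

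The groups overlapped for both genes, with log2 fold changes of 0.45 for Per1 (SE 0.33, 95% interval -0.32 to 1.22) and 0.29 for Per2 (SE 0.36, 95% interval -0.55 to 1.13). Single libraries moved both estimates. That of Per1 was 0.15 without Cre-negative 1, 0.22 without Cre-positive 2, 0.72 without Cre-positive 1 and 0.73 without Cre-negative 3. That of Per2 was 0.017 without Cre-negative 1, 0.090 without Cre-positive 2, 0.14 without Cre-negative 2, 0.47 without Cre-positive 1 and 0.72 without Cre-negative 3. With sex, read from Xist, as a term in the model, these were 0.17 and -0.013, and those of Arntl, Per3 and Nr1d2 were -0.27, 0.43 and 0.17. Within the libraries without Xist (2 Cre-negative, 1 Cre-positive) the mean difference in log2(FPKM + 1) of Per2 was 0.36, and within those with Xist (1 and 2) it was -0.39. For Arntl the same differences were -0.20 and -0.35, for Per3 0.38 and 0.48, and for Nr1d2 0.24 and 0.11. Per1 belongs to a list of glucocorticoid-induced transcripts. The 6 other genes of this list summed to 103, 185 and 277 FPKM in the Cre-negative libraries. In the Cre-positive libraries the sum was 244, 229 and 191 FPKM. The sum and Per1 were both lowest in Cre-negative 1. Elsewhere their orders differed: Cre-positive 1 had a sum of 244 FPKM with Per1 at 7.28 FPKM, and Cre-positive 3 had 191 with 11.8 FPKM. The part of these genes in the Per1 and Per2 levels was not tested.

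**Figure D2:**
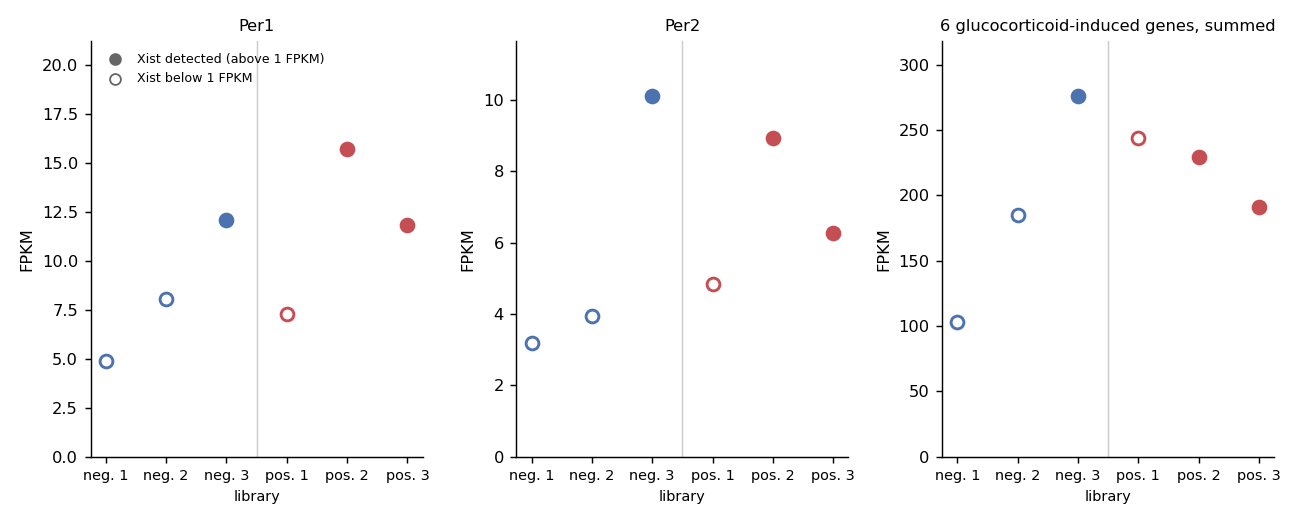
FPKM of Per1 and Per2 and the summed FPKM of 6 glucocorticoid-induced genes (vertical axes from 0) in each Cre-negative (blue) and Cre-positive (red) library, with filled points where Xist was above 1 FPKM. Per1 is at 11.8 FPKM or more and Per2 at 6.27 FPKM or more in the 3 libraries with filled points, and lower in the others, whereas the summed genes do not separate in this way.

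The cryptochromes, which inhibit the activator pair directly, had estimates of opposite sign. Cry1 (chr10:85131700-85185064) was at 4.28, 6.38 and 6.85 FPKM in Cre-negative 1 to 3 and at 4.30, 4.86 and 4.88 FPKM in Cre-positive 1 to 3. Cre-negative 1 was as low as the Cre-positive libraries, so that the groups overlapped (log2 fold change -0.25, 95% interval -0.63 to 0.13). Without Cre-negative 1 its estimate was -0.42, and without Cre-negative 3 it was -0.14. With all 6 libraries and the settings used above, Cry1 was the only repressor with an estimate below 0. Cry2 (chr2:92403646-92434043) was at 4.89, 6.88 and 5.53 FPKM and at 8.20, 6.10 and 5.46 FPKM, with Cre-positive 1 the highest (log2 fold change 0.16, 95% interval -0.23 to 0.55). The estimate of Cry2 was 0.013 without Cre-positive 1, 0.066 without Cre-negative 1, 0.27 without Cre-positive 3 and 0.28 without Cre-negative 2. The ratio of Cry1 to Cry2 was 0.876, 0.928 and 1.24 in the Cre-negative and 0.525, 0.796 and 0.892 in the Cre-positive libraries, and these ranges overlapped.

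Of the nuclear receptor genes, Nr1d2 (chr14:18204054-18239127) varied less between libraries. It was at 19.0, 16.2 and 19.4 FPKM in the Cre-negative libraries and at 20.9, 21.1 and 20.9 FPKM in the Cre-positive ones, without overlap. Group means were 18.2 ± 1.76 and 21.0 ± 0.101 FPKM (SD, n = 3 each), a difference of 15.2%. The log2 fold change was 0.20 (SE 0.10; 95% interval -0.03 to 0.43; limma unadjusted p = 0.0792). Without Cre-negative 2, the lowest library, it was 0.12 (limma unadjusted p = 0.282). Under median-of-ratios scaling the groups of Nr1d2 overlapped.

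Nr1d1 (chr11:98767932-98775333) was at 31.1, 35.9 and 29.9 FPKM in Cre-negative 1 to 3 and at 50.9, 32.1 and 30.8 FPKM in Cre-positive 1 to 3. A single library, Cre-positive 1, stood above all others, and without it the log2 fold change of 0.19 (SE 0.19, 95% interval -0.24 to 0.63) became -0.032. Leaving out Cre-positive 2 or 3 instead gave 0.29 and 0.32. The same library had the highest Cry2 and the highest level of the immediate early gene Fos (62.8 FPKM, against 10.7 to 37.4 FPKM in the others), which was chosen after its values were seen and whose part was not tested. Exons of Nr1d1 overlap those of Thra, on the opposite strand, by 263 bases. Thra was at 36.3 to 44.5 FPKM over the libraries, and the sources used here do not say whether counting used strand.

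**Figure D3:**
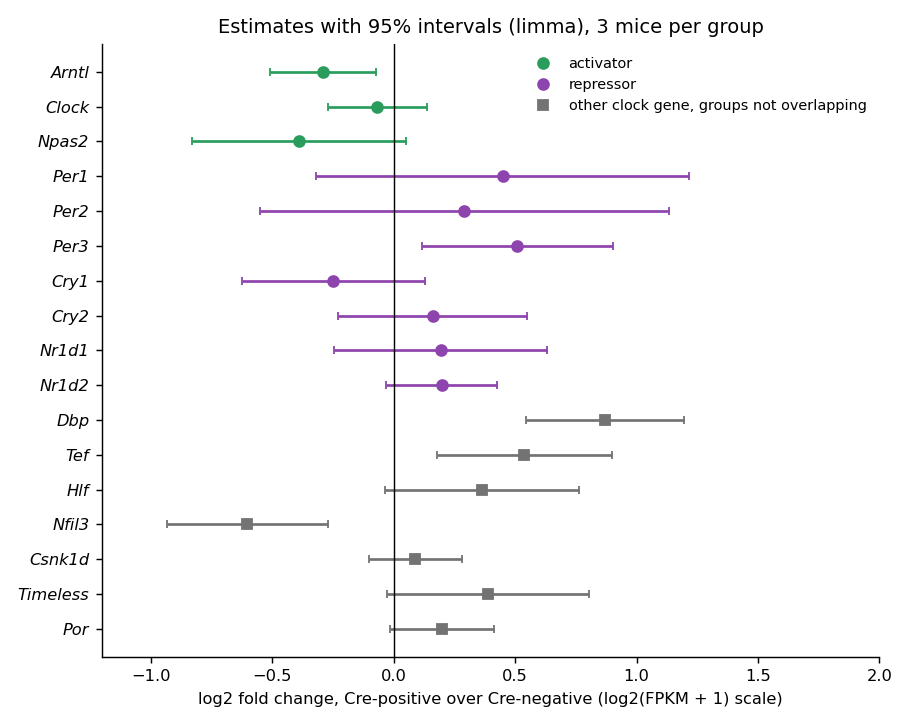
Log2 fold change of Cre-positive over Cre-negative (horizontal axis, log2(FPKM + 1) scale) with 95% intervals from limma for the 3 activators (green), the 7 repressors (purple) and the other clock genes whose groups do not overlap (grey squares). The intervals of Arntl and Per3 lie on opposite sides of 0 and those of the other 8 members cross it, before any adjustment for the number of genes.

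Set against each other, the arms were closer together in the Cre-positive libraries. The mean log2(FPKM + 1) of the activators was 3.96, 4.17 and 4.09 in Cre-negative 1 to 3 and 3.97, 3.71 and 3.80 in Cre-positive 1 to 3. That of the repressors was 2.94, 3.14 and 3.41 and then 3.32, 3.52 and 3.31. Each arm alone overlapped between the groups. Their difference, activators minus repressors, was 1.02, 1.03 and 0.69 in the Cre-negative and 0.65, 0.19 and 0.48 in the Cre-positive libraries, with means of 0.91 ± 0.20 and 0.44 ± 0.23 (SD, n = 3 each; difference -0.47 on the log2 scale). These ranges did not overlap, but Cre-negative 3 (0.69) and Cre-positive 1 (0.65) were close. As the genes were chosen with results known, no test was made of this score.

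Cre-positive 2 stood at the far end of the pattern. It had the lowest Arntl, Clock and Npas2 and the highest Per1, Per3 and Nr1d2 of the 6 libraries. Without it the difference in the score was -0.35. Within the libraries without Xist the difference was -0.37, and within those with Xist -0.35. The difference was below 0 under each alternative scaling, pseudocount and left-out library that was tried (-0.58 to -0.33).

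Ratios within a library are unchanged by scalings that use a single factor per library, which quantile normalization does not. The ratio of Arntl to Per3 was 6.86, 10.7 and 7.21 in Cre-negative 1 to 3 and 5.02, 2.89 and 4.31 in Cre-positive 1 to 3. The ratio of Arntl to Nr1d1 was 0.473, 0.454 and 0.528 in the Cre-negative and 0.263, 0.368 and 0.406 in the Cre-positive libraries. Neither ratio overlapped between the groups. For Arntl to Per3 this follows from the values of both genes given above and adds no further result. In the ratio of Arntl to Nr1d1, Arntl separated alone while Nr1d1 overlapped. Its lowest value came from Cre-positive 1, the library with the highest Nr1d1. How often ratios of other genes separate was not examined. The ratios of Nr1d1 to Nr1d2 and of Per1 to Per3 overlapped. The ratio of Npas2 to Clock, the alternative partners of BMAL1, was 0.426, 0.635 and 0.518 and then 0.536, 0.372 and 0.333, and it overlapped.

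**Figure D4:**
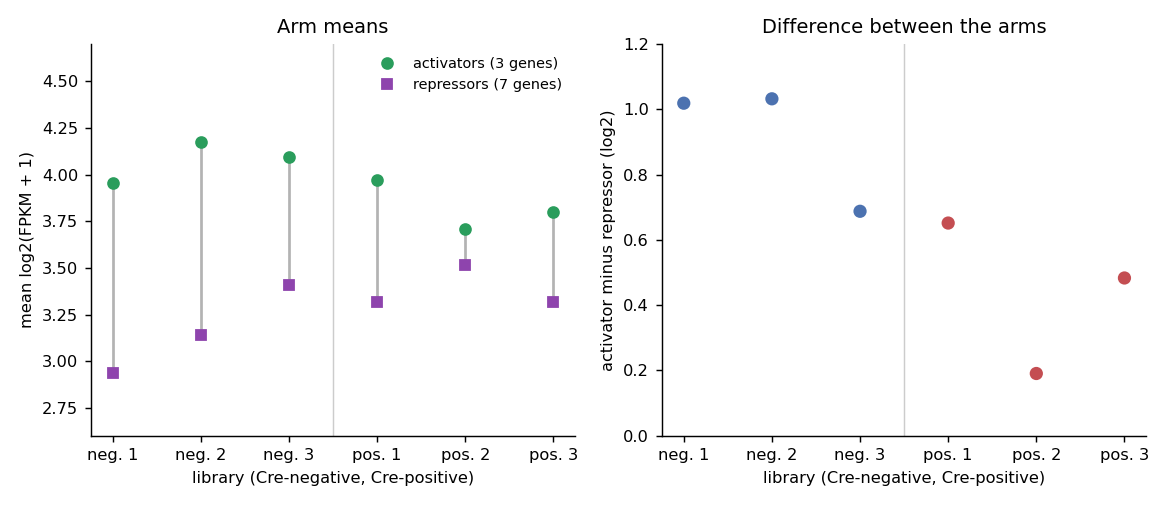
Left, mean log2(FPKM + 1) of the 3 activators (circles) and the 7 repressors (squares) in each library, on an axis that does not start at 0; right, the difference of the arms in Cre-negative (blue) and Cre-positive (red) libraries. The difference is 0.69 or more in the Cre-negative and 0.65 or less in the Cre-positive libraries, lowest in Cre-positive 2 (0.19).

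Over the arms, the median log2 fold change was -0.29 for the 3 activators and 0.20 for the 7 repressors, beside 0.03 over all genes tested. Of the repressors, 6 of 7 estimates were above 0. Those of Cry2 (-0.078) and Nr1d1 (-0.049) turned with array weights, that of Nr1d1 without Cre-positive 1 and that of Per2 with the sex term.

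The surrounding clock pathway was read from 34 further genes in 4 lists, of which 30 were tested. Among them 7 did not overlap between the groups, 6 higher and 1 lower in the Cre-positive libraries, a share of 23.3% against 8.37% of all genes tested, and 0 passed the adjusted test. The factors that bind D-boxes made up 4 of the 7, which was all 4 of their list. In the other lists 0 of 3, 2 of 15 and 1 of 8 tested genes did not overlap, so the share rests largely on the D-box factors. The lists were chosen with earlier results of these data known. Dbp averaged 4.36 ± 0.831 and 8.74 ± 0.841 FPKM (log2 fold change 0.87), and its repressing counterpart Nfil3 9.37 ± 0.946 and 5.87 ± 1.08 FPKM (-0.60; SD, n = 3 each). Tef and Hlf had log2 fold changes of 0.54 and 0.36.

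Of 7 ROR and related transcription factors, 3 were above the filter of a mean of 1 FPKM and 0 were without overlap. Rora, which activates Arntl through the element that REV-ERB proteins occupy, had a log2 fold change of -0.16. Bhlhe40, an E-box repressor, had 0.25. Of 15 kinases, ligases and partners of clock proteins, 2 did not overlap: Csnk1d, a kinase of PER proteins (42.0 ± 1.44 and 44.8 ± 0.835 FPKM; log2 fold change 0.09), and Timeless (2.68 ± 0.803 and 3.74 ± 0.315 FPKM; 0.39; SD, n = 3 each). Of 8 genes known as clock-controlled outputs, Por, which passes electrons to cytochrome P450 enzymes, was the only one without overlap (37.3 ± 1.64 and 43.0 ± 2.98 FPKM; SD, n = 3 each; 0.20). The median log2 fold changes were 0.45 for the D-box factors, 0.04 for the kinases and partners and 0.05 for the outputs.

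Among 8777 genes that averaged 5 FPKM or more, leaving out the clock and marker lists and predicted, clone-named, Rik and LOC symbols, those whose log2(FPKM + 1) ran most like that of Arntl over the 6 libraries were Tab3, Dstn, Sppl2a, Fuca1 and Rfxank (Pearson r from 0.967 to 0.979). Those that ran most against it were Hscb, Tsc2, Esrp2, Usp37 and Trim11 (r from -0.967 to -0.960). Each of these 10 genes separated the groups without overlap, as Arntl did, which their choice by likeness to Arntl makes likely. Of the genes compared, 1.45% reached 0.9 in size. On the same measure the activators Npas2 and Clock stood at 0.87 and 0.59. Of the repressors, Per3 stood at -0.94, Nr1d2 at -0.83, Per1 at -0.48 and Per2 at -0.32. Nr1d1 (-0.07) and Cry2 (-0.05) were near 0, and Cry1 ran with Arntl (0.64). These are descriptions over 6 libraries that share the group difference.

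Markers of other cells in the ileal wall were summed beside the clock genes. For 8 B cell markers the sum was 7.42 to 16.1 FPKM in the Cre-negative libraries and 73.7, 89.6 and 11.3 FPKM in Cre-positive 1, 2 and 3. Of the 8, Ms4a1 and Fcer2a were higher without overlap in the Cre-positive libraries, beside 5.77% of all genes tested, and the other 6 overlapped. In Cre-positive 3 this rested on values near 0. Ms4a1 was at 0.302 FPKM there, against at most 0.264 FPKM in the Cre-negative libraries, and Fcer2a at 0.0584 against 0.0562 FPKM. High levels of these markers were thus seen in Cre-positive 1 and 2 only. The sum of 5 adipocyte markers was 62.1 to 105 FPKM in the Cre-negative and 52.9 to 64.1 FPKM in the Cre-positive libraries. Of the 5, Plin1 and Fabp4 were lower without overlap in the Cre-positive libraries, beside 2.6% of all genes tested. Sums of 6 smooth muscle markers were 629 to 842 and 525 to 683 FPKM, of 7 neuron and glia markers 12.8 to 19.0 and 14.3 to 15.2 FPKM, of 4 T cell markers (Trac was not matched) 19.0 to 19.1 and 14.9 to 28.3 FPKM, and of 6 enterocyte markers 4088 to 7389 and 3027 to 7349 FPKM. The sum of 8 immediate early genes was 79.1 to 128 and 64.8 to 168 FPKM. No defining marker in these lists was at 0 in all libraries, and the part of these cells in the clock gene levels was not tested.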

How the data were processed

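Whole terminal ileum of 6 mice was sequenced. The authors deposited FPKM values for 23402 gene symbols, 1 column per library, and the builds GRCm38 and mm10 and the tools Cuffnorm, Cufflinks, STAR, Trimmomatic, FastQC, SAMtools and bedtools come from the submitters' processing notes, without roles or settings. A count model was not fitted to FPKM, and the sources used here do not state how columns were scaled to each other. Columns were matched to samples by genotype and number in the titles, and p-values measure only the spread between these mice. The 12695 genes that averaged 1 FPKM or more, all 10 members among them, were tested on log2(FPKM + 1) with limma (moderated test, trend, two-sided), and p-values were adjusted by Benjamini-Hochberg (threshold 0.05). The fit was tested on simulated data. Depth was estimated from low values that fell on ratios of whole numbers up to 6 (68.0% to 71.5% of them within 0.02 on the log2 scale, beside medians of 10.2% to 12.8% at other offsets), so depths and fragment numbers are approximate. Members and lists were chosen with earlier results of these data known. Named genes were the 10 members, genes of the 4 clock lists whose groups did not overlap, with Rora and Bhlhe40 named beside them after their values were seen, and the 5 genes most like and most unlike Arntl. Outside this rule, Il17ra, Xist and the marker genes of cells and tissue were named as checks, and Fos and Thra were chosen after their values were seen. A listed gene is not reported here. In the lists, Ciart and Cipc were found under older symbols. Alternatives were other pseudocounts, filters, scalings, limma options, the replicate number as a block, a sex term, and each library left out. Splits by Xist and counts of members without overlap were added after the data were seen. The analysis ran in Python 3.11.15 with matplotlib 3.10.9, scipy 1.17.1, numpy 2.4.6 and pandas 2.3.3, and in R 4.3.3 with limma 3.58.1.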

Additional observations from a re-analysis of the deposited data

How the results depend on the processing

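No member passed the adjusted test under any alternative run; the lowest adjusted p was 0.0823, for Per3 with array weights, and with a filter of 5 FPKM Per3 was not tested. The count of 0 genes called by limma over the whole table (459 at an unadjusted p under 0.05) became 2 with a pseudocount of 0.1, 2 with a pseudocount of 5, 2 under equal-sum scaling, 24 with array weights and 0 to 46 when 1 library was left out (46 without Cre-positive 3, at most 2 otherwise). With the replicate block it was 1; same-numbered samples did not deviate together (correlations of -0.13, 0.03 and -0.11), so the numbers were not read as pairs, and not every sample correlated best with its own number. Arntl, Npas2, Per1, Per3, Cry1 and Nr1d2 kept their direction in every alternative. The log2 fold change of Clock turned to 0.044 under equal-sum scaling, that of Cry2 to -0.078 and of Nr1d1 to -0.049 with array weights, that of Nr1d1 to -0.032 without Cre-positive 1 (range with 1 library left out -0.032 to 0.32), and that of Per2 to -0.013 with the sex term and to -0.39 within libraries with Xist; the cause was not tested. The difference between the arms ranged from -0.58 to -0.35 with 1 library left out. Between 3 and 5 members were without overlap when 1 library was left out (5 without Cre-negative 1), where fewer samples also leave 12.4% to 26.5% of all genes tested without overlap (20.5% without Cre-negative 1); it was 2 under median-of-ratios (8.38% of all genes) or equal-sum scaling (16.7%), where Nr1d2 and Arntl respectively overlapped. Depth limits Per3 most, and 3 mice a group limit every member.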
